A study of Mus musculus with 12 samples.

Results

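The voltage-gated sodium and calcium channel subunit genes were described in RNA-seq libraries of mouse brain and skull after focal ischemic injury. The members were taken by gene symbol from the count table: every symbol that begins with Scn, a number and then a or b (sodium channel alpha and beta subunits), and every symbol that begins with Cacna, Cacnb or Cacng (calcium channel alpha1, alpha2delta, beta and gamma subunits). This gave 39 of the 22317 symbols in the table, and no expression value was used to choose them. They comprised 9 sodium alpha, 4 sodium beta, 10 calcium alpha1, 4 alpha2delta, 4 calcium beta and 8 gamma subunit genes.

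The animals were young adult wild-type male BALB/c mice, and focal ischemia was induced in them by photothrombosis (PT), in which Rose Bengal is injected into the blood and activated by a laser through an optically cleared skull window. SB2 and SB4 are labelled as brain cortex taken on day 2 and day 4 after ischemic injury of the skull, and BS2 and BS6 as interparietal bone taken on day 2 and day 6 after ischemic injury of the brain, with 3 libraries in each of the 4 groups. All 12 libraries therefore come from mice with an injury, and uninjured tissue was not analysed here. The labels do not say whether the 3 libraries of a group came from separate mice, whereas the methods of the study call them biological replicates, so the p-values measure the spread between these libraries.

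Voltage-gated sodium and calcium channels open when the membrane depolarizes and let sodium or calcium into the cell. The alpha subunit (alpha1 in calcium channels) forms the pore and senses the voltage, while the beta, alpha2delta and gamma subunits bring it to the membrane and set its gating. In neurons the sodium channels carry the rising phase of the action potential, P/Q- and N-type calcium channels trigger transmitter release and T-type channels open near the resting potential. In skeletal muscle a separate sodium channel carries the action potential, and an L-type channel serves as the voltage sensor of contraction. Several gamma subunits are better known as partners of AMPA-type glutamate receptors than of calcium channels.

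Libraries held 14126082 to 18972654 counts in total. The tissue content of 2 of the 4 groups went against the labels. Of 10 neuron markers (Snap25, Syt1 and others), the summed level was 40.2 to 89.7 CPM (counts relative to the TMM-scaled library size) in the libraries labelled SB2 and 69.4 to 169.6 CPM in BS6, against 10280 to 10374 CPM in SB4 and 9933 to 10174 CPM in BS2. Of the osteoblast and osteocyte list, 8 of 10 genes were in the table, and their sum was 36309 to 41580 CPM in SB2 and 19899 to 80719 CPM in BS6, against 22.5 to 25.7 CPM in SB4 and 24.3 to 34.4 CPM in BS2. The libraries labelled SB2 thus held bone transcripts under a cortex label, and those labelled BS2 held brain transcripts under a bone label. Whether these 2 groups were exchanged was not tested. Had they been, SB4 against BS2 would set day 4 against day 2 in brain, and BS6 against SB2 day 6 against day 2 in bone. SB2 and BS6 are called the bone-rich libraries below and SB4 and BS2 the brain-rich libraries, and the group names are those of the labels throughout. In SB4 against SB2 and in BS6 against BS2, the day and the tissue content cannot be told apart. In bulk RNA, fewer cells of a type and less RNA per cell cannot be told apart either.

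Most of the channel subunit genes followed this tissue content. The members together took 10297 to 11949 counts per library in SB2 and 9799 to 12356 in BS6, but 77123 to 105869 in SB4 and 76324 to 93367 in BS2. In each library 36 to 39 of the 39 members had at least 1 count, so the difference lay in level rather than in detection for most of them. Members passing the filter on low counts numbered 38 in SB4 against SB2 (Scn11a did not pass) and 37 in BS6 against BS2 (Scn11a and Cacng1 did not).

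**Figure D1:**
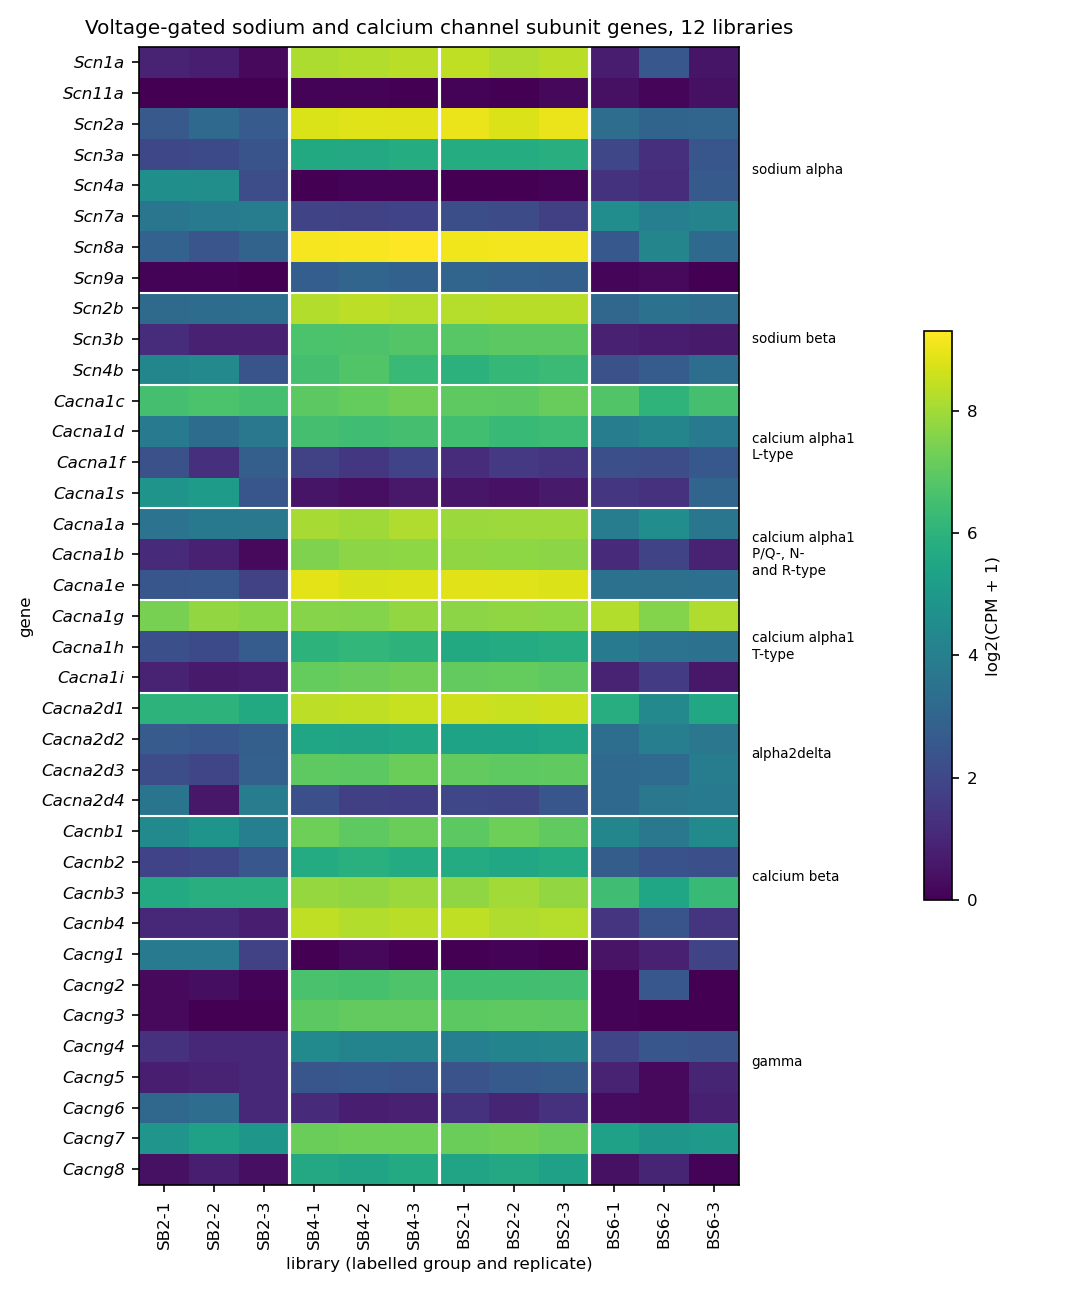
Level of 37 members in each of the 12 libraries as log2(CPM + 1), with genes in rows grouped by subunit class and libraries in columns by labelled group. The SB4 and BS2 columns look alike and are bright for most genes, and Cacna1g and Cacna1c keep a similar shade in all 12 columns.

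In SB4 against SB2, 28 members were called higher and 5 lower. A call required that edgeR's quasi-likelihood test gave an adjusted p below 0.05 and that the gene differed by more than 1 on the log2 scale. Over all 17293 genes tested, 27.8% were called higher and 28.6% lower. The median log2 fold change was 3.44 over the members tested and -0.01 over all genes tested. In BS6 against BS2, 5 members were higher and 29 lower, against 29% and 26.5% of all 17311 genes tested, and the members' median was -3.22 against 0.02 over all genes. These comparisons share no library, but each sets a brain-rich group against a bone-rich one, in opposite order. The 28 genes higher in SB4 than in SB2 were all lower in BS6 than in BS2. The share of all genes with such opposite calls is not given, so this count is not particular to the members. Scn4a, Scn7a and Cacna1s went the other way in both, Cacng6 was lower in both, Cacna1f and Cacna2d4 were called (as higher) only in BS6 against BS2, and Cacna1c and Cacna1g were called in neither.

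**Figure D2:**
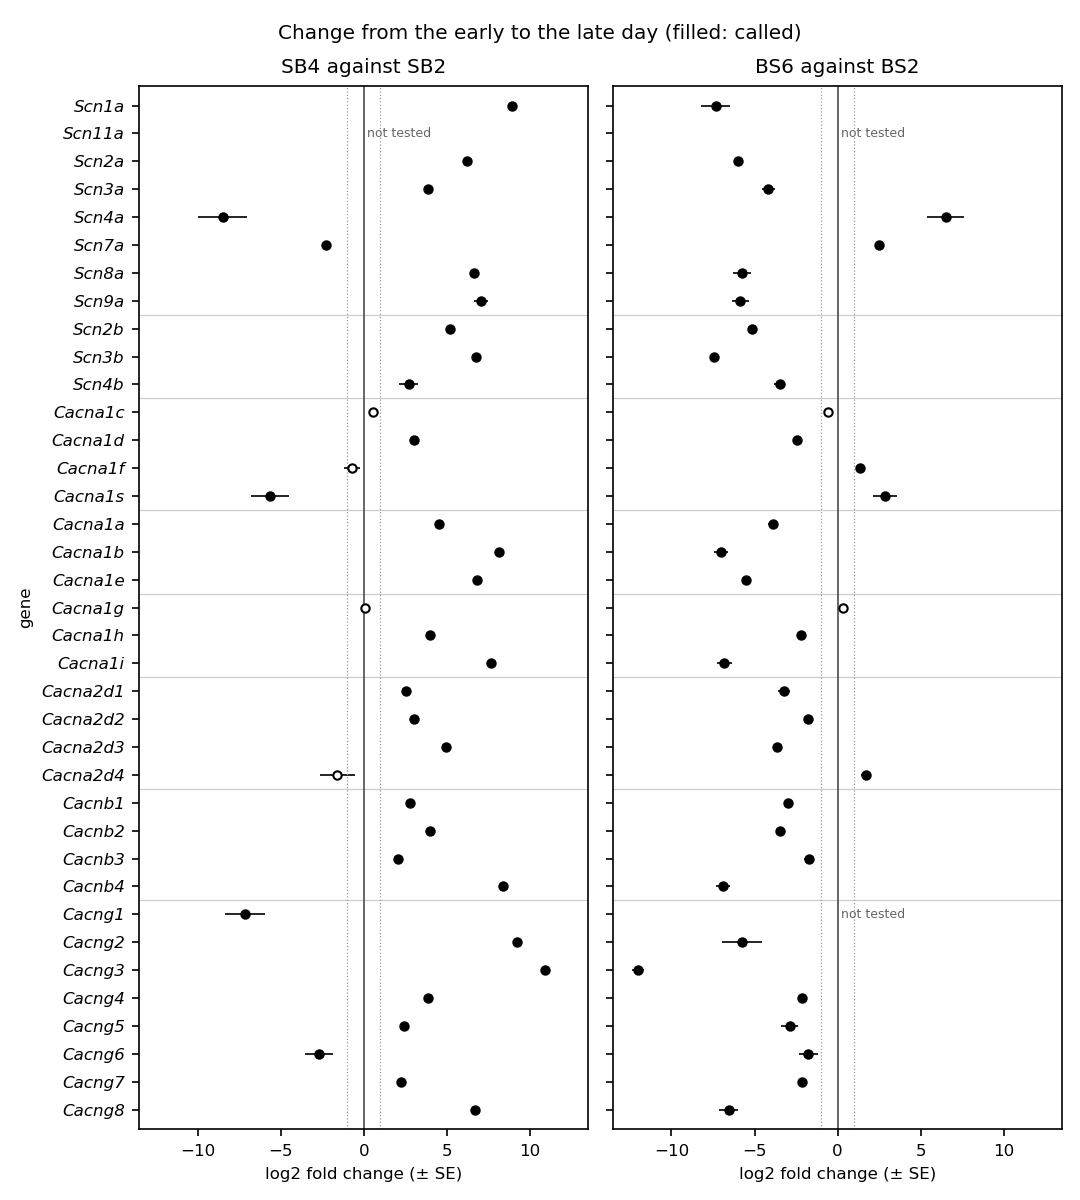
Log2 fold change of 37 members with its standard error in SB4 against SB2 (left) and BS6 against BS2 (right); filled points passed the test and the fold limit of 1, which the dotted lines mark. Genes called at the right of zero in the left panel lie at the left of zero in the right panel, and Cacna1g lies near zero in both.

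Among the sodium alpha subunits, Scn8a, Scn2a and Scn1a, the main pore genes of central neurons, made up nearly all transcripts in the brain-rich libraries. Scn8a, which is enriched at the axon initial segment and nodes, measured 6.53, 4.46 and 6.71 CPM in SB2 (replicates 1 to 3), 568, 594 and 627 CPM in SB4, 539, 554 and 566 CPM in BS2 and 4.87, 17.9 and 8.08 CPM in BS6. Scn2a, a channel of excitatory neurons and unmyelinated axons, measured 5.11, 8.07 and 5.38 CPM in SB2, 437, 461 and 471 CPM in SB4, 524, 446 and 515 CPM in BS2 and 9.07, 6.88 and 7.24 CPM in BS6. For both genes every brain-rich library lay far above every bone-rich one. The log2 fold change of Scn8a was 6.66 ± 0.14 (SE) in SB4 against SB2 (edgeR, adjusted p = 5.6e-12) and -5.75 ± 0.52 in BS6 against BS2 (adjusted p = 0.00011). For Scn2a it was 6.22 ± 0.15 (adjusted p = 1.1e-10) and -6.00 ± 0.18 (adjusted p = 3e-06).

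Scn1a, the channel on which fast-spiking inhibitory neurons rely, averaged 299.8 ± 20.8 CPM (SD, n = 3) in SB4 and 318 ± 23.6 CPM in BS2, and 0.604 ± 0.378 CPM in SB2. In BS6 it gave 0.667, 4.69 and 0.453 CPM, so that replicate 2 stood above the others. Its log2 fold changes were 8.94 ± 0.22 and -7.34 ± 0.87, and the latter was -9.13 ± 0.17 without BS6 replicate 2. Scn3a, best known from the developing brain, had 49.9 ± 2.3 CPM in SB4 and 3.51 ± 0.69 CPM in SB2, and differed by 3.84 ± 0.13 and -4.18 ± 0.39 on the log2 scale. Scn9a, a channel of sensory and sympathetic neurons that some central neurons also express, reached 5.83 to 7.23 CPM in the brain-rich libraries and had 2 counts in all of SB2 and 5 in all of BS6. Its counts were 159.9 times as high in SB4 as in SB2 after scaling (95% exact interval 43.9 to 1326) and 62.1 times as high in BS2 as in BS6 (26.3 to 193). Such intervals cover counting error only.

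The remaining sodium alpha genes did not follow the neuronal members. Scn4a, the sodium channel of skeletal muscle, had 416, 352 and 60 counts in SB2, 24, 20 and 80 in BS6, and 0 or 1 count in each brain-rich library. Its counts were 430 times as high in SB2 as in SB4 (119 to 3554) and 124 times as high in BS6 as in BS2 (21.8 to 4930), and edgeR called both differences (adjusted p = 0.0037 and 0.002). Within the bone-rich groups Scn4a varied several-fold, and it was low in SB2 replicate 3 and high in BS6 replicate 3 compared with the other libraries of its group.

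Scn7a encodes a sodium channel that is not gated by voltage but responds to extracellular sodium, and it is known from glia and Schwann cells. It measured 11.6, 12.8 and 13.9 CPM in SB2, 2.77, 2.48 and 2.63 CPM in SB4, 3.73, 3.44 and 2.39 CPM in BS2 and 22.4, 15.1 and 16.7 CPM in BS6. The bone-rich and brain-rich libraries did not overlap. Scn7a was 4.82-fold lower in SB4 than in SB2 (log2 -2.27 ± 0.16, adjusted p = 1.1e-07 in edgeR) and 5.63-fold higher in BS6 than in BS2 (log2 2.49 ± 0.25, adjusted p = 0.00015). Of a list of myelinating Schwann cell markers, Prx measured 11.4 to 15.5 CPM in SB2 and 13.9 to 25.4 CPM in BS6 against 2.28 to 2.63 CPM in SB4 and 2.03 to 2.17 CPM in BS2. Ncmap of the same list measured 1.48 to 2.69 CPM in SB2 and 3.27 to 7.5 CPM in BS6 against 0.356 to 0.422 CPM in SB4 and 0.51 to 0.83 CPM in BS2. Both markers were thus higher in every bone-rich than in every brain-rich library, as Scn7a was. Their part in the Scn7a difference was not tested.

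Scn11a, a channel of pain-sensing neurons, had 0 counts in all 3 SB2 libraries, 2 counts in SB4, 3 in BS2 and 12 in BS6 (5, 2 and 5). A count of 0 allows up to 3 counts in a library. The counts in BS6 were 3.99 times those in BS2 (1.08 to 22.1, counting error only), and the gene did not pass the filter for a test. Of 5 sensory neuron markers 3 were in the table, and they summed to 1.06 to 4.79 CPM over all libraries.

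The sodium beta subunits are single-pass membrane proteins that also act in cell adhesion, and all 4 were called higher in SB4 and lower in BS6. Scn2b had log2 fold changes of 5.17 ± 0.09 and -5.14 ± 0.16, and Scn3b of 6.78 ± 0.14 and -7.44 ± 0.14, from 0.582 to 1.25 CPM in bone-rich to 100.2 to 124 CPM in brain-rich libraries. Scn4b measured 18.3, 19.9 and 4.29 CPM in SB2 and 3.94, 5.57 and 9.31 CPM in BS6, against 61.9 to 109.5 CPM in the brain-rich libraries. SB2 replicate 3 was again the low one, and the log2 fold changes of Scn4b were 2.72 ± 0.57 and -3.50 ± 0.33 (adjusted p = 0.0093 and 0.00012).

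The calcium alpha1 genes divide by current type. The P/Q-, N- and R-type pores are the presynaptic and dendritic channels of neurons, and all 3 were called higher in SB4 and lower in BS6. Cacna1a, the P/Q-type pore, measured 10.7, 12.5 and 12 CPM in SB2, 266, 248 and 293 CPM in SB4, 239, 243 and 243 CPM in BS2 and 14.3, 22.5 and 11.4 CPM in BS6. It was 23.1-fold higher in SB4 than in SB2 and 15-fold lower in BS6 than in BS2 (edgeR, adjusted p = 4.8e-12 and 3.4e-05). Cacna1e, the R-type pore, measured 4.54, 4.72 and 2.6 CPM in SB2 and 478, 421 and 445 CPM in SB4. It differed 114-fold there (adjusted p = 2.5e-10) and 46-fold between BS6 and BS2 (adjusted p = 2.7e-06). Cacna1b, the N-type pore, had 20, 12 and 3 counts in SB2 and 18, 44 and 13 in BS6 against 2532 to 3889 in the brain-rich libraries, and showed the widest gap of the 3, with log2 fold changes of 8.13 ± 0.26 and -7.02 ± 0.42. The latter was -7.66 ± 0.14 without BS6 replicate 2.

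The L-type genes were split. Cacna1c, the L-type pore of heart, smooth muscle and neurons, measured 93.3, 101 and 93.4 CPM in SB2, 123, 136 and 156 CPM in SB4, 128, 124 and 140.2 CPM in BS2 and 108, 64.5 and 93.9 CPM in BS6. The brain-rich libraries were all above the bone-rich ones, but by less than the 2-fold limit, with log2 fold changes of 0.55 ± 0.09 and -0.55 ± 0.19 (edgeR, adjusted p = 0.00016 and 0.037). Cacna1d, an L-type pore of neurons and endocrine cells that opens at lower voltage, measured 12.8, 8.66 and 12.2 CPM in SB2 and 92.4, 87 and 94 CPM in SB4. It was 8.17-fold higher in SB4 and 5.52-fold lower in BS6 (adjusted p = 1.1e-09 and 1.7e-05). Per kb, Cacna1c was the leading L-type gene in SB2 (4.52 ± 0.21 CPM per kb, Cacna1d 0.887 ± 0.176) and in BS6, and Cacna1d in SB4 (7.22 ± 0.29 CPM per kb, Cacna1c 6.54 ± 0.79) and in BS2 (6.61 ± 0.44 and 6.16 ± 0.41), and in both groups the libraries of the 2 genes overlapped. Exons of Cacna1d share 589 bases with Chdh on the opposite strand, and whether the counting used strand is not given in the sources used here.

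Cacna1s, the voltage sensor of skeletal muscle contraction, and Cacna1f, the L-type pore of photoreceptors, went against Cacna1d. Cacna1s had 475, 526 and 77 counts in SB2, 27, 24 and 110 in BS6 and 6 to 10 in each brain-rich library. Its log2 fold changes were -5.64 ± 1.13 in SB4 against SB2 (adjusted p = 0.0072) and 2.85 ± 0.74 in BS6 against BS2 (adjusted p = 0.012), and the latter was 1.78 ± 0.34 without BS6 replicate 3. Of its exon length, 19.98% overlaps an antisense gene model, Gm37759. Cacna1f had 70, 21 and 100 counts in SB2, 35, 35 and 49 in SB4, 21, 30 and 23 in BS2 and 57, 57 and 75 in BS6. It was higher in BS6 than in BS2 (log2 1.34 ± 0.26, adjusted p = 0.0031), whereas SB2 and SB4 overlapped through SB2 replicate 2 (log2 -0.70 ± 0.46, adjusted p = 0.19).

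The T-type genes held the member that varied least with tissue content. Cacna1g measured 168, 218 and 201 CPM in SB2, 194, 191 and 218 CPM in SB4, 205, 212 and 212 CPM in BS2 and 297, 188 and 287 CPM in BS6. The groups overlapped throughout, apart from BS6 replicates 1 and 3 above all other libraries. The log2 fold change was 0.05 ± 0.10 in SB4 against SB2 and 0.30 ± 0.18 in BS6 against BS2 (edgeR, adjusted p = 0.65 and 0.18), and the direction of the former turned with upper-quartile factors or library totals. The other T-type genes behaved like neuronal members. Cacna1i rose from 0.591 to 0.909 CPM in SB2 to 136 to 155 CPM in SB4, by 7.64 ± 0.13 on the log2 scale, and Cacna1h from 3.28 to 5.44 CPM to 63.2 to 69.8 CPM, by 3.98 ± 0.15.

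With Cacna1g at a like level in all groups, the makeup of the calcium pore transcripts differed between bone-rich and brain-rich libraries. Per kb of exon, Cacna1g made up 63.9% ± 5.66 of the calcium alpha1 transcripts in SB2 and 72.1% ± 4.11 in BS6, against 17% ± 0.40 in SB4 and 18.4% ± 0.42 in BS2. The summed level of the 10 genes was 30.3 ± 3.36 CPM per kb in SB2, 117 ± 6.02 in SB4, 112 ± 0.31 in BS2 and 35 ± 6.45 in BS6. The sum of 8 sodium alpha genes showed a wider gap, from 105.4 ± 5.17 CPM per kb in SB4 and 108 ± 5.25 in BS2 to 5.33 ± 1.48 in SB2 and 4.57 ± 0.094 in BS6. In SB4 these were mostly Scn8a (35.9% ± 0.076), Scn2a (34% ± 0.52) and Scn1a (25.5% ± 0.53). Scn7a took the largest mean share in BS6 (53.8% ± 10.3) and Scn4a in SB2 (40.6% ± 22.8), with 55.1%, 52.3% and 14.2% for Scn4a in SB2 replicates 1, 2 and 3. These shares are a description and carry no test.

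**Figure D3:**
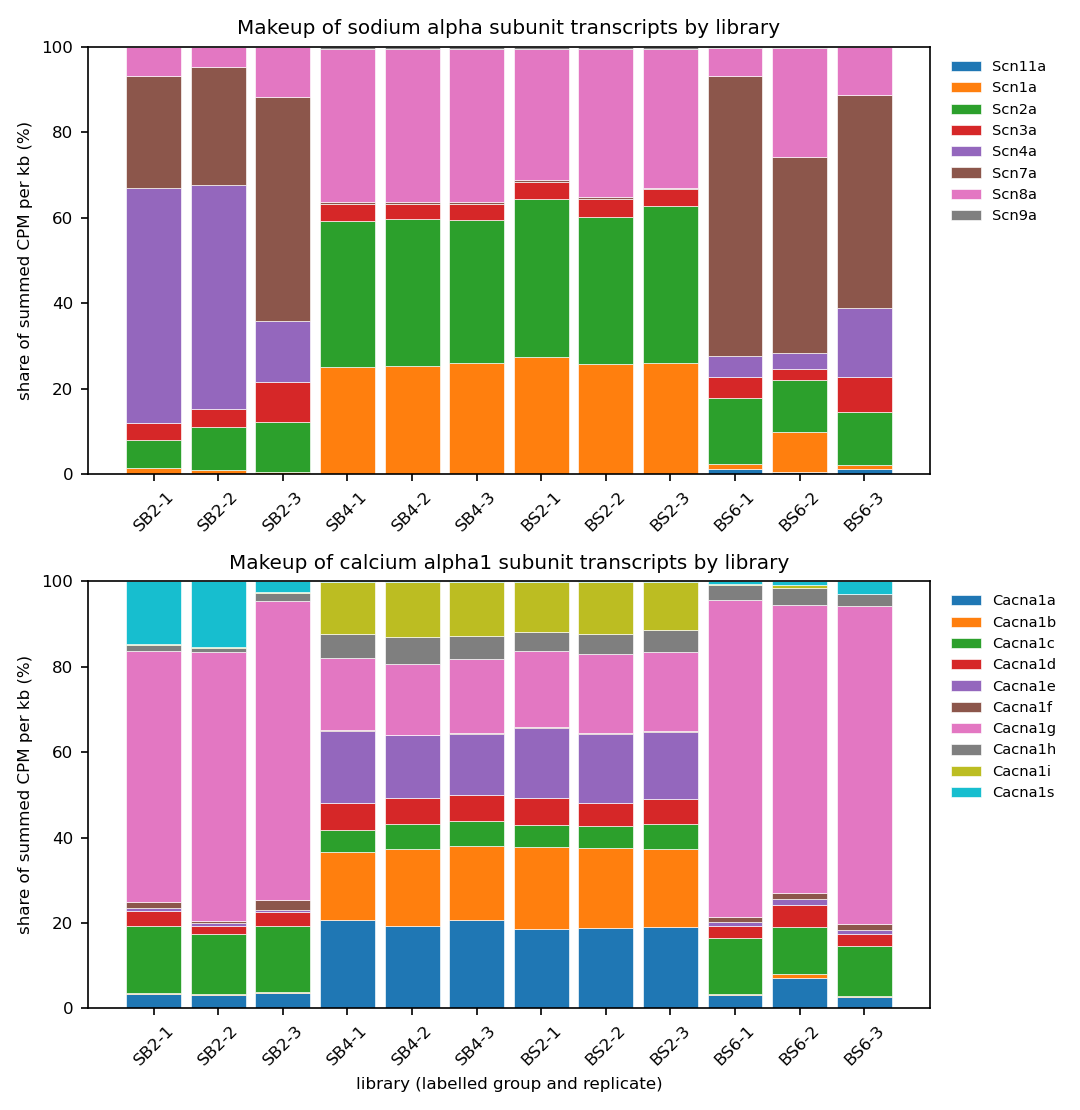
Share of each gene in the summed CPM per kb of exon of 8 sodium alpha genes (top) and of the 10 calcium alpha1 genes (bottom), in percent, for each of the 12 libraries. The SB4 and BS2 bars are nearly alike, Cacna1g fills most of the SB2 and BS6 bars below, and the sodium bars of SB2 replicate 3 and BS6 replicate 2 differ from those of their groups.

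The alpha2delta subunits carry the calcium channel to the membrane, and Cacna2d1 is the main target of the gabapentinoid drugs. Cacna2d1 measured 64.1, 63.6 and 48.7 CPM in SB2, 333, 334 and 367 CPM in SB4, 381, 361 and 383 CPM in BS2 and 54.8, 20 and 46.2 CPM in BS6. It led its class per kb in all groups and was 5.91-fold higher in SB4 than in SB2 and 9.29-fold lower in BS6 than in BS2 (edgeR, adjusted p = 1.9e-09 and 0.00033). Cacna2d2 and Cacna2d3, both of neurons, differed in the same directions, by 3.05 ± 0.11 and -1.81 ± 0.19 for Cacna2d2 and 4.96 ± 0.24 and -3.67 ± 0.23 for Cacna2d3 on the log2 scale. Cacna2d4, which is needed at photoreceptor synapses, was the exception. It had 197, 8 and 230 counts in SB2, 53, 46 and 42 in SB4, 50, 44 and 63 in BS2 and 122, 193 and 211 in BS6. It was called higher in BS6 than in BS2 (log2 1.72 ± 0.29, adjusted p = 0.0017) and not in SB4 against SB2 (log2 -1.60 ± 1.05, adjusted p = 0.22).

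The calcium beta subunits bind the pore inside the cell and raise its number at the membrane, and all 4 were called higher in SB4 and lower in BS6. Cacnb3 led the class per kb in each group, with 50.1, 55.8 and 56.1 CPM in SB2, 225, 217 and 240.3 CPM in SB4, 216, 258 and 218 CPM in BS2 and 86.3, 43.9 and 77.3 CPM in BS6. Its log2 fold changes of 2.09 ± 0.07 and -1.74 ± 0.26 were the smallest of the class (edgeR, adjusted p = 2.7e-10 and 0.001). Cacnb4, mutated in the lethargic mouse, had the largest, 8.37 ± 0.12 and -6.92 ± 0.42, from 12 to 19 counts in SB2 and 26, 69 and 26 in BS6 to 4266 to 5916 in the brain-rich libraries. An annotated transcript on the opposite strand, A430018G15Rik, covers 15.99% of the Cacnb4 exon length. Cacnb1, which also pairs with the muscle L-type channel, and Cacnb2 gave 2.77 ± 0.19 and -3.00 ± 0.21, and 3.98 ± 0.17 and -3.44 ± 0.18. Thus Cacnb3 made up 73.1% ± 4.98 of calcium beta transcripts per kb in SB2 and 79.3% ± 3.33 in BS6, and 44.4% ± 1.30 and 45.6% ± 2.29 in SB4 and BS2, while Cacnb4 made up 28% ± 0.90 in SB4 and 0.59% ± 0.12 in SB2.

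The gamma genes held the most extreme differences. Cacng3, an AMPA receptor partner of cortical neurons, had 3, 0 and 0 counts in SB2 and 1, 0 and 0 in BS6, against 1719, 2521 and 2432 in SB4 and 2077, 1960 and 1689 in BS2. Its counts were 2143 times as high in SB4 as in SB2 (95% exact interval 733 to 10392), and 5734 times as high in BS2 as in BS6, where a single count allows no narrow interval (1029 to 226530). Cacng2 (stargazin), the founding AMPA receptor partner, had 3, 4 and 1 counts in SB2 and 1367 to 1933 in SB4, and Cacng8 had 6, 11 and 5 counts in SB2 and 680 to 910 in SB4. Their log2 fold changes in SB4 against SB2 were 9.21 ± 0.18 and 6.70 ± 0.20. Cacng4, Cacng5 and Cacng7, also of the AMPA receptor partner families, differed in SB4 against SB2 by 2.23 to 3.87 on the log2 scale. Cacng7 led the class per kb in all groups, at 28.1, 39 and 29.4 CPM in SB2, 147, 149.9 and 150.2 CPM in SB4, 148, 154 and 139 CPM in BS2 and 39.2, 29.3 and 30.7 CPM in BS6 (adjusted p = 2.5e-08 and 2.6e-05).

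Cacng1 is the gamma subunit of the skeletal muscle channel, and Cacng6 is its close relative. Cacng1 had 226, 199 and 43 counts in SB2, 6, 13 and 42 in BS6 and 4 counts in the 6 brain-rich libraries together. Its counts were 162 times as high in SB2 as in SB4 (55.1 to 788, edgeR adjusted p = 0.0021) and 60.9 times as high in BS6 as in BS2 (10.5 to 2445), a comparison that did not pass the filter on low counts. Cacng6 had 137, 136 and 17 counts in SB2, 17, 14 and 15 in SB4, 26, 15 and 21 in BS2 and 3, 3 and 12 in BS6. It was the 1 member called lower in both comparisons (log2 -2.68 ± 0.85 and -1.77 ± 0.57, adjusted p = 0.028 and 0.027). SB2 replicate 3 lay at the level of the SB4 libraries. The call in SB4 against SB2 was lost when SB2 replicate 1 or 2 or any SB4 library was left out (adjusted p 0.059 to 0.10), and that in BS6 against BS2 when BS2 replicate 1 or 3 or BS6 replicate 1 was (adjusted p 0.075 to 0.081). Without BS6 replicate 3 the latter log2 fold change was -2.73 ± 0.47.

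Scn4a, Cacna1s and Cacng1 of skeletal muscle, and Cacng6, varied together within the bone-rich groups. All had their lowest SB2 value and their highest BS6 value in replicate 3. The order was not particular to them. Scn4b (18.3, 19.9 and 4.29 CPM in SB2, 3.94, 5.57 and 9.31 CPM in BS6) had it too. So did Cacnb1 (20.8, 26.9 and 15.3 CPM in SB2, 18, 12.3 and 20.1 CPM in BS6). Both were higher in the brain-rich libraries. Of the skeletal muscle marker list, 9 of 10 genes were in the table (Acta1, Ckm, Myh1, Myh2, Tnnt3, Tnni2, Mylpf, Ttn and Casq1), and they summed to 2563, 3243 and 383 CPM in SB2 and 94.3, 144 and 789 CPM in BS6. In the brain-rich libraries the sum was 14.7 to 18.3 CPM, and Tnnt3 and Tnni2 were at or near 0. All 9 marker genes were called lower in SB4 than in SB2, and 8 of the 9 higher in BS6 than in BS2. Cacng6 was instead called lower in BS6 than in BS2, a call that did not hold without single libraries. The part of muscle transcripts in these member differences was not tested.

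**Figure D4:**
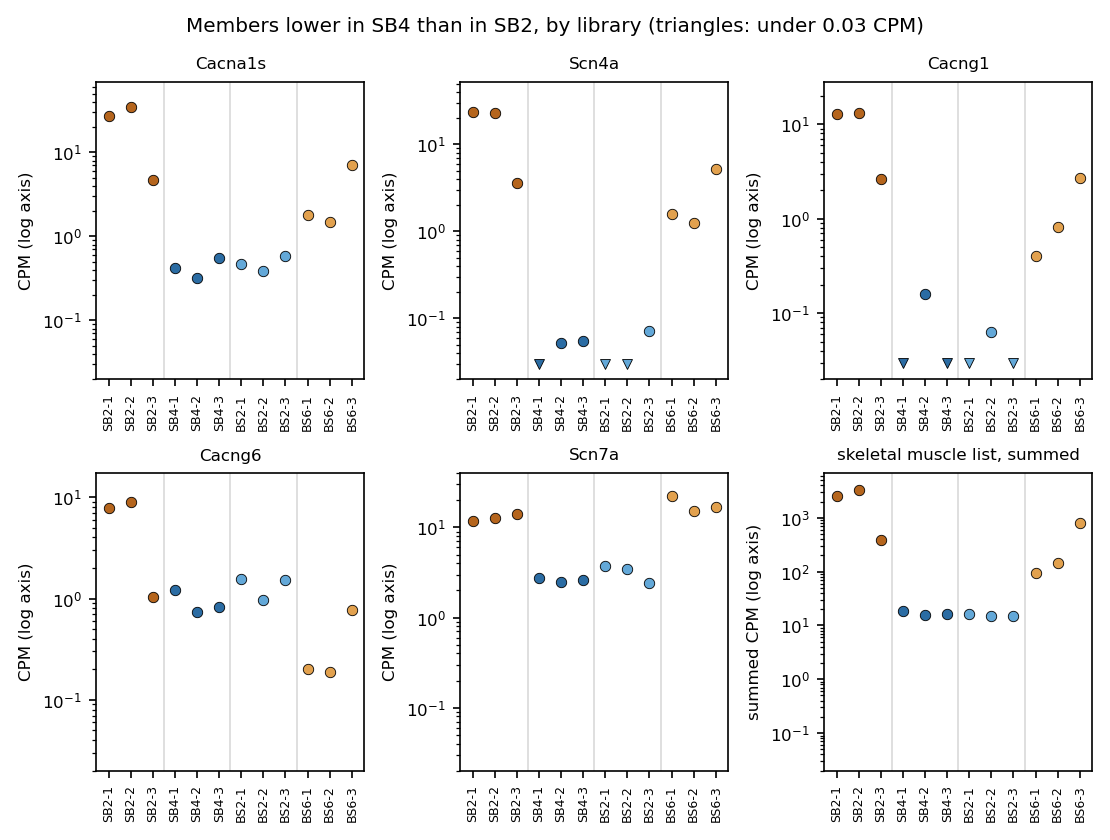
Level by library of the 5 members lower in SB4 than in SB2 and of the summed skeletal muscle marker list, in CPM on log axes, with triangles for values under 0.03 CPM. Cacna1s, Scn4a, Cacng1 and Cacng6 drop in SB2 replicate 3 as the marker sum does, and Scn7a does not.

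Other members were set apart by a single library. Cacna2d4 and Cacna1f were low in SB2 replicate 2, at 0.525 and 1.38 CPM, against 11.2 and 13.9 CPM (Cacna2d4) and 3.98 and 6.05 CPM (Cacna1f) in replicates 1 and 3. Without SB2 replicate 2 both were called lower in SB4 than in SB2, with log2 fold changes of -2.15 ± 0.23 for Cacna2d4 and -1.08 ± 0.27 for Cacna1f (edgeR, adjusted p = 8.1e-06 and 0.0037). A list of 12 pineal and photoreceptor genes, chosen after the data were seen, had 11 genes in the table, and its sum was 197, 8.6 and 323 CPM in SB2, 196, 202 and 279 CPM in BS6 and 4.53 to 6.58 CPM in the brain-rich libraries. Rbp3 and Crx, which define the list, were at 0 in all brain-rich libraries and at 0.722 and 0.394 CPM in SB2 replicate 2, against 27.8 to 88.2 CPM and 4.57 to 9.44 CPM in the other bone-rich libraries. In BS6 against BS2 10 of the 11 were called higher and Aanat lower, at 0.133 to 0.423 CPM in bone-rich and 0.924 to 1.88 CPM in brain-rich libraries. In SB4 against SB2 6 were tested, of which 2 were called lower and 1 higher. Their part in the levels of Cacna2d4 and Cacna1f was not tested.

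BS6 replicate 2 was set apart in some neuronal members. It had 77 counts of Cacng2 where the other BS6 libraries had 1 and 0, 75 of Scn1a against 10 and 7, 286 of Scn8a against 73 and 125, and 69 of Cacnb4 against 26 and 26. Cacna1i (33 against 13 and 8), Cacna1b (44 against 18 and 13), Cacng8 (15 against 5 and 1) and Cacna1a (359 against 214 and 177) were also highest there. Not all neuronal members stood out as higher there. BS6 replicate 2 had 0 counts of Cacng3, 110 of Scn2a against 136 and 112 and 11 of Scn3b against 12 and 9. Its count of Cacna1e was close to the others (156 against 154 and 147). It was the lowest of its group in Scn3a (23 against 44 and 71), Cacna2d1 (320 against 821 and 714) and Cacng5 (3 against 13 and 15). Without it the log2 fold change of Cacng2 in BS6 against BS2 moved from -5.74 ± 1.21 to -11.08 ± 0.25, that of Cacng8 from -6.56 ± 0.56 to -7.71 ± 0.31, that of Cacna1i from -6.81 to -7.55 ± 0.16, that of Cacnb4 to -7.51 ± 0.14 and that of Scn8a to -6.40 ± 0.19, and all stayed called. A list of 7 cerebellar neuron genes, also chosen after the data were seen, had 6 genes in the table and summed to 52.8 CPM in BS6 replicate 2 against 8.74 to 21.5 CPM in the other libraries. Pcp2, a marker of Purkinje cells, was at 4.82 CPM there and at most 0.64 CPM elsewhere, and Tbr1 and Emx1, of forebrain neurons, were at 0 there and at most 0.534 CPM in the other bone-rich libraries. The sums of the neuron list (169.6 against 69.4 and 81.1 CPM), the oligodendrocyte list (311 against 138.5 and 125 CPM) and the astrocyte list (228 against 91.1 and 62.7 CPM) were also the highest of BS6 there. The same library held 24262 CPM of the neutrophil lineage list against 818 to 3289 CPM in the other bone-rich libraries. Their part in these member levels was not tested.

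**Figure D5:**
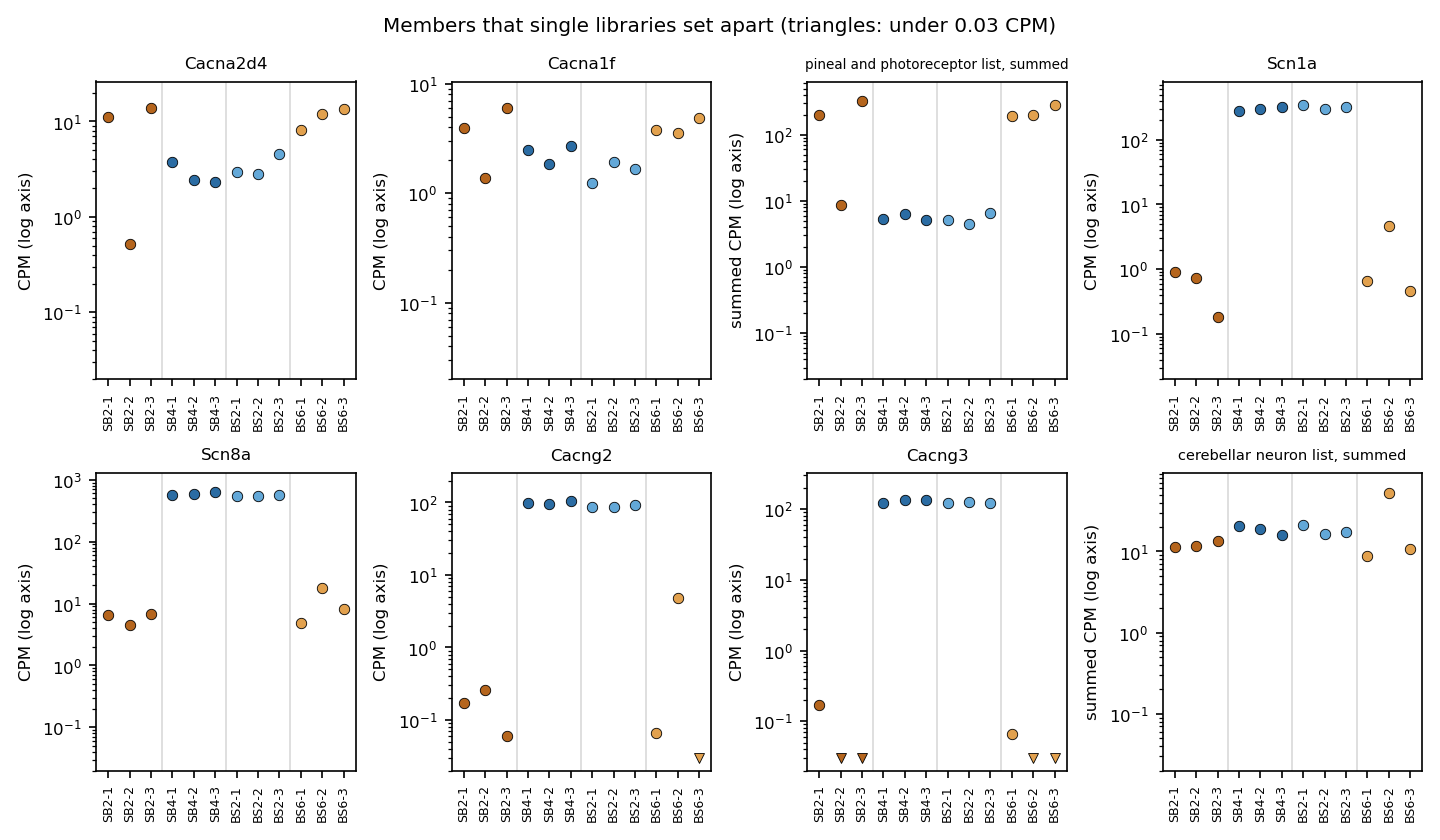
Level by library, in CPM on log axes, of Cacna2d4, Cacna1f, Scn1a, Scn8a, Cacng2 and Cacng3 and of the summed pineal and photoreceptor and cerebellar neuron lists, with triangles for values under 0.03 CPM. Cacna2d4 and Cacna1f fall in SB2 replicate 2, and Scn1a, Scn8a and Cacng2 but not Cacng3 rise in BS6 replicate 2.

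The difference between both early-to-late changes was tested as an interaction over all 12 libraries. Of 38 members tested, 6 had a more positive change in BS6 against BS2 than in SB4 against SB2 (Scn4a, Scn7a, Cacna1s, Cacna1f, Cacna2d4 and Cacng1), and 29 a more negative one. Over all 18068 genes tested these shares were 37.8% and 35.8%. Cacna1g and Cacng6 were not called (log2 differences 0.26 ± 0.22 and 0.92 ± 1.13), while Cacna1c was, at -1.09 ± 0.23 (edgeR, adjusted p = 0.0008).

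Groups of like tissue content were compared as well. In SB4 against BS2, both brain-rich, 35 members were tested and 0 were called higher or lower by edgeR, where 0.086% of all genes were called higher and 0.0614% lower. DESeq2 called 0 members as well, where it called 24 of all 16278 genes tested higher and 17 lower. An unadjusted p under 0.05 was found for 7 members, and no share over all genes is given beside this count. Cacna1h alone passed an adjusted p of 0.05, without reaching the fold limit, at 63.2, 69.8 and 63.9 CPM in SB4 and 48.8, 51.1 and 54.5 CPM in BS2 (log2 0.36 ± 0.07, adjusted p = 0.011). The log2 fold changes of the members lay between -0.56 (Cacng6) and 0.54 (Cacna1f), with a median of 0.02.

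In BS6 against SB2, both bone-rich, 34 members were tested, 4 were called higher and 0 lower, where 1.11% of all genes were called higher and 0.741% lower. Cacna1h measured 12.8, 10.8 and 10.3 CPM in BS6 and 3.86, 3.28 and 5.44 CPM in SB2 (log2 1.40 ± 0.23, edgeR adjusted p = 0.034). Cacna1e measured 10.3, 9.76 and 9.5 CPM in BS6 and 4.54, 4.72 and 2.6 CPM in SB2 (log2 1.28 ± 0.26, adjusted p = 0.045). Neither gene's groups overlapped. Cacng4 (2.8, 4.56 and 4.14 against 1.53, 1.12 and 1.03 CPM, log2 1.61 ± 0.30, adjusted p = 0.041) and Cacna2d2 (9.14, 14.6 and 12 against 5.4, 4.79 and 5.99 CPM, log2 1.11 ± 0.22, adjusted p = 0.043) did not overlap either. All 4 calls were lost when any SB2 library or BS6 replicate 1 or 3 was left out (adjusted p 0.055 to 0.19) and with a replicate block (adjusted p 0.10 to 0.12). Over all genes tested, the main fit called 182 higher and 121 lower. With any SB2 library left out or with the replicate block, 0 of all genes were called. Without BS6 replicate 1, 17 of all genes were called higher and 17 lower, and without BS6 replicate 3, 15 and 17. These losses were thus not particular to the 4 members. With library totals Cacna1e and Cacna2d2 were not called (adjusted p = 0.052 and 0.053), and Cacna2d2 fell under the fold limit without BS6 replicate 2 (log2 0.94). Cacng6, Cacng1, Scn4a and Cacna1s had the lowest values, log2 -3.93 ± 0.97, -2.88 ± 0.86, -2.68 ± 0.85 and -2.70 ± 0.90, with adjusted p of 0.066 to 0.12 in edgeR. Of 11 members with an unadjusted p under 0.05, 4 were lower, and no share over all genes is given beside this count. DESeq2 called 4 members lower, where it called 305 of all 16329 genes tested lower and 750 higher.

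Genes that work with these channels were taken from 4 lists. Of 9 sodium channel partners, 7 were higher in SB4 than in SB2 and 7 lower in BS6 than in BS2. Fgf12, an intracellular protein that binds sodium channels, had the largest change (log2 7.61 ± 0.13 and -7.20 ± 0.30), and Ank3, which anchors them at the axon initial segment, gave 5.31 ± 0.10 and -5.06 ± 0.22. Fgf11 was not called in either. Of 12 calcium channel regulators, 7 were higher and 5 lower in SB4 than in SB2. Rims1, which ties calcium channels to the release site, led with 7.35 ± 0.21 and -7.00 ± 0.40. The 5 lower genes were Rrad, Gem and Rem1, small GTPases that inhibit calcium channels, and Stac and Stac3, adaptors of the L-type channel. In BS6 against BS2, 4 of these were called higher, Stac3 was not (0.57 ± 0.42), and the other 7 regulators were lower.

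Of 10 genes of excitation-contraction coupling, 5 were higher and 3 lower in SB4 than in SB2, and 2 higher and 6 lower in BS6 than in BS2. The calcium pump and junction genes of muscle, Atp2a1 (log2 -9.15 ± 1.38 and 7.29 ± 1.08) and Jph2 (-6.61 ± 0.55 and 5.24 ± 0.51), moved with Cacna1s. Jph1, a junction gene of skeletal muscle, did not, since it was not called in SB4 against SB2 (higher on average, edgeR adjusted p = 0.12) and was lower in BS6 than in BS2 (-2.75 ± 0.38, adjusted p = 0.00075), and Jsrp1 was called in neither (-1.70 ± 0.81 and -0.69 ± 0.44). The release channel of skeletal muscle, Ryr1, was called lower in SB4 (-3.18 ± 0.84, edgeR adjusted p = 0.022) but not called in BS6 against BS2 (0.78 ± 0.69, adjusted p = 0.34). Jph3, Jph4, Ryr2 and Ryr3, also used by neurons, went with the neuronal members. Of 12 related pores and channel-like proteins 11 were in the table and 9 were tested. Nalcn, the sodium leak channel, and its partners Unc79, Unc80 and Fam155a were higher in SB4 (log2 5.28 to 6.75) and lower in BS6 (-5.78 to -4.22). The endolysosomal channels Tpcn1 and Tpcn2 and the gamma-like Tmem37 were lower in SB4 and higher in BS6.

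Several members lie next to each other in the genome (mm10, GENCODE M21), and neighbours did not always move alike. On chromosome 2, Scn3a, Scn2a, Scn1a, Scn9a and Scn7a follow each other within 65457118 to 66784914, with 38.46 kb between Scn9a and Scn7a and 39.24 kb between Scn1a and Scn9a. The first 4 were higher in SB4 than in SB2 by 3.84 to 8.94 on the log2 scale, and Scn7a at the end of the row was lower by 2.27. On chromosome 11, Cacng1 is 15.83 kb from Cacng4, and the former was lower and the latter higher in SB4. On chromosome 7, Cacng7, Cacng8 and Cacng6 lie in a row with gaps of 22.46 and 8.546 kb, and in SB4 against SB2 Cacng6 was lower while the others were higher, a Cacng6 call that did not hold without single libraries. In BS6 against BS2 all 3 were lower (log2 -2.15 for Cacng7, -6.56 for Cacng8 and -1.77 for Cacng6). On chromosome 9, the beta genes Scn2b and Scn4b, 8.324 kb apart, moved alike.

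The 250 bases before each start site in RefSeq (GRCm38.p6) were searched on both strands for CAGCTG (an E-box), GGGCGG (a GC box) and TATAAA. RefSeq gave 40 promoter windows for 29 of the 39 members. CAGCTG occurred in 11 of the 40 (27.5%) and in 13% of all 32851 promoters searched, GGGCGG in 15 (37.5%) against 32.74%, and TATAAA in 2 (5%) against 12.37%. A match is a description of the sequence and not a binding site.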

How the data were processed

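Paired-end poly(A) mRNA libraries, 12 in number, were analysed. Reads were filtered by the authors using fastp and aligned to mm10 by HISAT2 2.1.0, and the authors deposited whole-number counts for 22317 gene symbols, without normalization. The counting program, its annotation and its use of strand are not given in the sources used here, nor whether the counts precede the ComBat_seq batch correction of the study, so overlapping and antisense genes are uncertain.

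Columns were matched to samples by name. Differences were tested in edgeR 4.0.16 (R 4.3.3) by the robust quasi-likelihood test with TMM factors and Benjamini-Hochberg adjustment over all genes that passed filterByExpr at a minimum of 10, in fits of 2 groups of 3 libraries, and with all 12 libraries for the interaction. Calls needed an adjusted p below 0.05 and a log2 difference of more than 1 in size. Standard errors were derived from the F statistic of each test. Levels are CPM with TMM factors over the 12 libraries, as mean ± SD, and CPM per kb divide by the merged exon length in GENCODE M21, which held 22022 of the symbols. Where a group had 5 counts or fewer, the ratio of summed counts is given with an exact 95% interval, since the fitted fold then depends on the prior count. On simulated counts the fit was tested before use.

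Members were named where they led their class per kb, went against most members or were called between like groups. The values of 2 members and of some partner and marker genes are not reported here, and shares within a class leave those members out. The members, lists and comparisons were chosen with earlier results of these data known. The alternatives were DESeq2 1.42.0 (the study used an earlier version), other scaling factors, other filters, the adjusted p alone, 1 fit over all libraries, a replicate block and leaving out each library.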

Additional observations from a re-analysis of the deposited data

Results flagged for a closer look

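The change from SB2 to SB4 differed from the change from BS2 to BS6 for 35 members by an interaction contrast over all 12 libraries in edgeR. Of these, 34 are reported here. Over all 18068 genes tested, 37.8% were called more positive and 35.8% more negative in this contrast. The values below are the log2 change in BS6 against BS2 minus that in SB4 against SB2. In this contrast the days and the tissue content of the libraries cannot be told apart.

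Among the sodium alpha genes the difference was -16.27 for Scn1a, -12.91 for Scn9a, -12.40 for Scn8a, -12.21 for Scn2a and -8.01 for Scn3a, and it was positive for Scn7a (4.77) and Scn4a (15.00). The sodium beta genes gave -14.21 for Scn3b, -10.29 for Scn2b and -6.20 for Scn4b.

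Among the calcium alpha1 genes it was -15.14 for Cacna1b, -12.35 for Cacna1e and -8.43 for Cacna1a, -14.44 for Cacna1i and -6.15 for Cacna1h. The L-type genes were spread from -5.49 for Cacna1d and -1.09 for Cacna1c to 2.05 for Cacna1f and 8.50 for Cacna1s.

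The alpha2delta genes gave -8.62 for Cacna2d3, -5.77 for Cacna2d1, -4.84 for Cacna2d2 and 3.32 for Cacna2d4, and the calcium beta genes -15.27 for Cacnb4, -7.41 for Cacnb2, -5.75 for Cacnb1 and -3.81 for Cacnb3. The gamma genes gave -22.93 for Cacng3, -14.93 for Cacng2, -13.24 for Cacng8, -5.98 for Cacng4, -5.29 for Cacng5, -4.36 for Cacng7 and 12.66 for Cacng1. Cacng3, Scn4a, Cacng1 and Scn9a rest on 3 counts or fewer in a whole group, so the size of their values depends on the prior count.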

How the results depend on the processing

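The members called higher in SB4 than in SB2 (28) numbered 28 to 28 when 1 library was left out, and those lower (5) 4 to 6. In BS6 against BS2 the ranges were 5 to 6 higher and 28 to 29 lower, for the interaction 6 to 6 and 28 to 29, for SB4 against BS2 0 to 0 both ways, and for BS6 against SB2 0 to 3 higher and 0 to 0 lower. Over all genes tested in BS6 against SB2, 0 were called either way when any SB2 library was left out. Without BS6 replicate 2, 397 of all genes were called higher and 270 lower there. Requiring at least 10 counts in every library left 21 higher and 2 lower in SB4 against SB2, 3 higher and 20 lower in BS6 against BS2 and 2 higher and 20 lower in the interaction, since fewer members were then tested. In BS6 against SB2, library totals gave 2 higher, and DESeq2 and 1 fit over all 12 libraries gave 4 and 4 lower. Over all 16329 genes tested there, library totals gave 125 higher and DESeq2 305 lower. An adjusted p alone gave 1 higher in SB4 against BS2 (Cacna1h).

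The replicate numbers did not pair the libraries: deviations of same-numbered libraries correlated at -0.131 to 0.0931. With a replicate block, 0 members were higher in BS6 against SB2 in place of 4, where 0 of all 16329 genes tested were called higher or lower. The other counts of members were as without the replicate block. The cause of these changes was not tested.

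The direction of Cacna1g in SB4 against SB2 (0.05) turned with upper-quartile factors (-0.081), library totals (-0.039) and without SB2 replicate 1 or SB4 replicate 3 (-0.056 to 0.14 over all libraries left out). Upper-quartile factors moved the median over all genes to -0.14 in SB4 against SB2 and to 0.20 in the interaction. In BS6 against BS2, Cacna2d4 and Cacng6 were not called in the fit over all 12 libraries (adjusted p = 0.051 and 0.072). Scn11a, with at most 5 counts in a library, was too low for a test at this depth.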
